A study of Mus musculus with 9 samples.

Results

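Collagens are secreted or membrane-anchored proteins whose chains wind into a triple helix, and each type is built from its own set of chains. They were taken here as every row whose Ensembl identifier belonged to a protein-coding gene with a symbol of the form Col, number, a, number in the GENCODE M21 annotation. This rule found 44 collagen genes among 44886 gene identifiers, and they took between 0.0529% and 0.0793% of the counts of a library. The counts came from poly(A) RNA of dissected striatum of 9 mouse embryos at E17.5, 1 library per embryo and 3 embryos per genotype, on a C57BL/6 background as labelled, although the study's methods give a mixed background for the Islet1Cre line. The genotypes were Control, Islet1Cre;Ebf1fl/- and Dlx5/6::Cre;Ebf1fl/-, where Ebf1 is a transcription factor of direct-pathway striatal projection neurons (dSPN). The mutants carried a floxed and a null Ebf1 allele, and the Control embryos were described as heterozygous, so that they too may have carried a null allele or a Cre. Islet1Cre acts in dSPN and in cholinergic interneurons, whereas Dlx5/6::Cre acts in all striatal projection neurons and in interneurons. The comparisons asked which collagen genes differed in the striatum of each mutant.

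Fibril-forming collagens give connective tissue its tensile strength, type IV collagens form the network of basement membranes, and in brain tissue both lie mainly around vessels and in the meninges. A smaller class spans the plasma membrane. Its member Col25a1 is made by neurons, its shed ectodomain was first described in amyloid plaques, and motor axons need it to innervate muscle.

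Library totals ranged from 16548083 to 41507049 counts, with Islet1Cre;Ebf1fl/- replicate 3 the smallest. The striatal label was checked against markers of projection neurons, of which Bcl11b, Penk and Ppp1r1b stood at 101, 93.9 and 88.4 RPKM (counts scaled to exon length and library size) in Control. Ebf1 itself gave 7945, 14208 and 9697 normalized counts (counts divided by a library size factor) in Control and 11774 to 15343 in the 6 mutant libraries. Gene-level counts do not show which exons were read, so the genotypes could not be read from the counts and follow the labels. The study reports genotyping by PCR and an absence of Ebf1 protein from the striatum of both mutants at E17.5. Xist, transcribed from the inactive X chromosome, and the Y-linked gene Eif2s3y differed between the libraries. Control replicate 2 had 3.27 and 1420.2 normalized counts, all 3 Dlx5/6::Cre;Ebf1fl/- libraries had 0 counts of Eif2s3y, and both genes were present in Islet1Cre;Ebf1fl/- replicate 3 (7270 and 956) and in Control replicate 3 (12075 and 110). The part of sex in the comparisons was not tested, nor was the cause of the mixed signal. Dlx5/6::Cre;Ebf1fl/- replicate 1 stood apart in several collagens and over genes of all kinds, as described further down. The sample codes of the labels began with IE for all Islet1Cre embryos and for Controls 1 and 2, and with D for all Dlx5/6::Cre embryos and for Control 3. What these letters mark was not given, so they cannot be told apart from genotype when the mutants are compared with each other.

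All 44 genes had at least 1 count, but they differed widely in level. In Control, 12 of them reached 1 RPKM and 23 stayed below 0.3 RPKM. Col9a3, a chain of the fibril-associated type IX collagen, was the highest at 28.2 ± 3.7 RPKM (SD, n = 3). Of its exon bases, 6.1% are shared with Tcfl5 on the opposite strand. Col4a1 and Col4a2, the ubiquitous chains of basement membranes, followed at 20.2 ± 3.2 and 19.3 ± 1.9 RPKM. Col4a1 and Col4a2 did not differ from each other beyond their spread. Col6a1 stood at 12.2 ± 3.3, Col11a2 at 6.21 ± 2.6, Col9a2 at 4.87 ± 0.45, Col25a1 at 4.70 ± 1.0 and Col16a1 at 3.10 ± 0.85 RPKM, and from Col11a2 to Col25a1 the order lay within the spread. By contrast, the type I and type III genes Col1a1, Col1a2 and Col3a1 were at 0.203, 0.200 and 0.198 RPKM, or 0.225, 0.465 and 0.349 RPKM with the longest transcript as their length. Col25a1 was thus the only membrane-spanning collagen above 1 RPKM, and with the longest transcript as its length its rank was 5 rather than 7, at 9.08 RPKM.

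**Figure D1:**
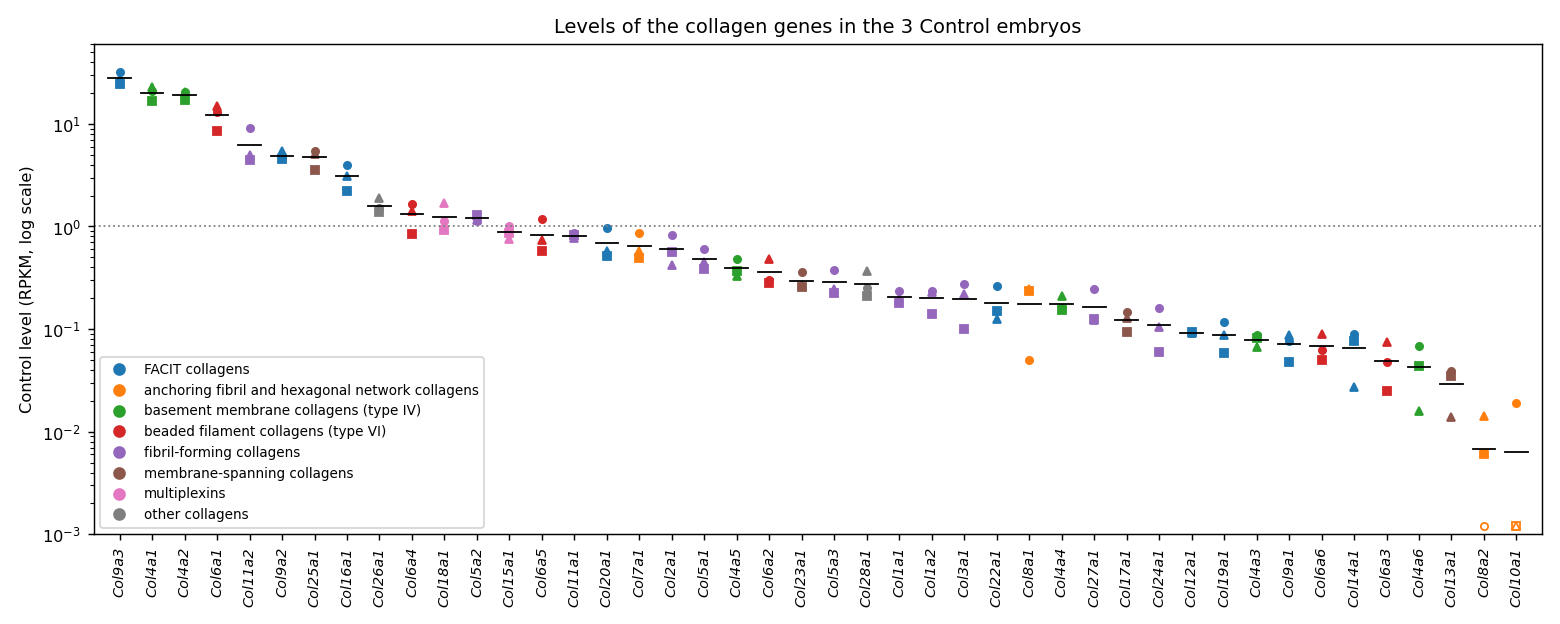
Level of each of the 44 collagen genes in the 3 Control embryos (RPKM, log axis), with circles, squares and triangles for replicates 1, 2 and 3, a black line at the mean, colours for the classes and a dotted line at 1 RPKM. Open symbols at the bottom are libraries with a count of 0. The means of Col9a3, Col4a1, Col4a2 and Col6a1 lie above 10 RPKM, and most fibril-forming genes lie below 1 RPKM.

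After a filter on low counts 41 of the 44 genes were tested. Col8a2, Col10a1 and Col13a1 were too low, at 8.2 normalized counts or fewer in every library. In Islet1Cre;Ebf1fl/- against Control, 3 of the 41 passed at an adjusted p below 0.05 (edgeR quasi-likelihood test, adjusted over all genes), where 0.971% of all 16368 genes tested did. Col25a1 fell, while Col5a2 and Col4a4 rose. In Dlx5/6::Cre;Ebf1fl/- against Control, 5 passed, against 2.39% of all genes: Col25a1, Col6a1 and Col6a4 fell, and Col5a2 and Col4a4 rose. With the mean of both mutants against Control 4 passed, against 2.76% of all genes, namely Col25a1, Col6a1, Col5a2 and Col4a4. Summed markers of cortical excitatory neurons were higher in all 3 Dlx5/6::Cre libraries than in any Control (values further down), and their part in the Dlx5/6::Cre differences was not tested. Both comparisons used the same 3 Control embryos, so that the 3 genes called in both are not independent observations. The median log2 fold change of the 41 genes was 0.04 for Islet1Cre and 0.09 for Dlx5/6::Cre, beside 0.00 and 0.01 over all genes tested. The p-values set a difference of means against the spread between embryos within genotypes, which was estimated over all 3 genotypes. In whole tissue fewer cells of a type and less RNA per cell cannot be told apart.

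Leaving out 1 library at a time moved these counts. The Islet1Cre;Ebf1fl/- comparison gave 0 collagen genes without Islet1Cre replicate 2, 1 without Islet1Cre replicate 1, Control 1 or Control 3, and 3 without Islet1Cre replicate 3. Over all genes the 159 calls of that comparison became 15 without Islet1Cre replicate 2, 19 without Islet1Cre replicate 1, 31 without Control 1 and 55 without Control 3, so that the collagen counts fell together with those of all genes. It gave 2 without Control 2 or Dlx5/6::Cre replicate 3. The Dlx5/6::Cre comparison gave 4 without Dlx5/6::Cre replicate 1, 3 without Control 2 or Islet1Cre replicate 1, and 2 without any other library, while its 392 calls over all genes ranged from 143 without Control 1 to 613 without Dlx5/6::Cre replicate 1. For the mean of both mutants the count was 2 without Control 1. With the code letters as a covariate, 1 gene (Col25a1) remained for Islet1Cre and 2 (Col25a1 and Col6a1) remained for Dlx5/6::Cre. Within the IE libraries 3 passed for Islet1Cre, and within the D libraries, with 1 Control, 0 passed for Dlx5/6::Cre.

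**Figure D2:**
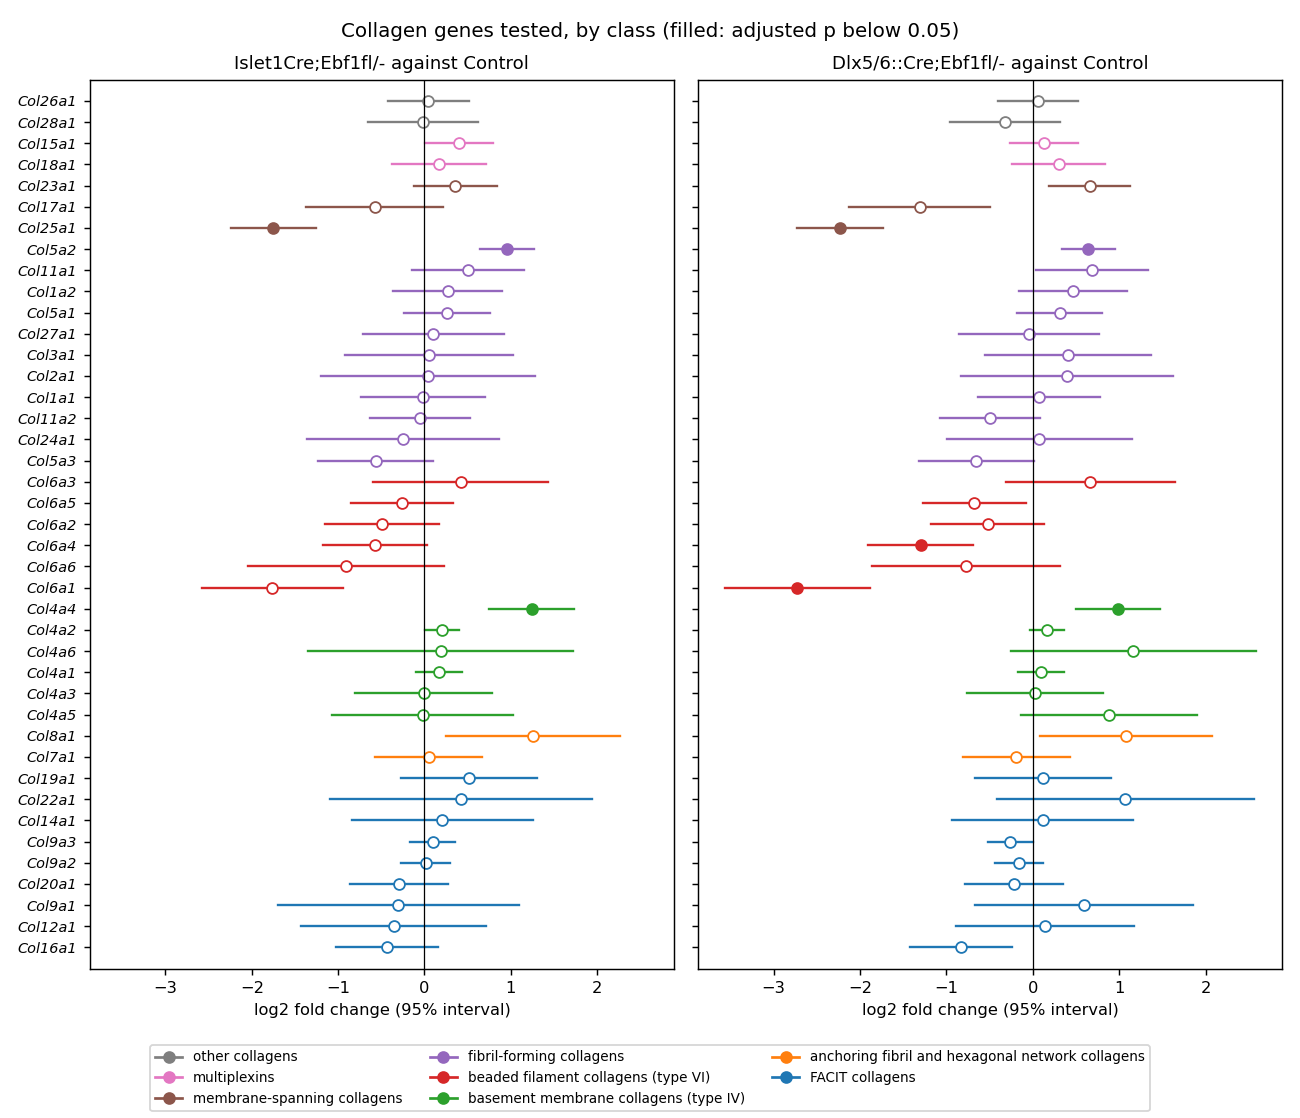
Log2 fold change of the 41 collagen genes tested, with 95% intervals, in Islet1Cre;Ebf1fl/- (left) and Dlx5/6::Cre;Ebf1fl/- (right) against Control, coloured by class. Filled points passed at an adjusted p below 0.05 (3 on the left, 5 on the right). Open points run from -1.76 to 1.25 on the left and from -1.31 to 1.17 on the right.

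Among the membrane-spanning collagens, Col25a1 (ENSMUSG00000058897, chromosome 3, 130131501 to 130599877, plus strand, mm10) showed the clearest difference. It gave 2123, 1392 and 1987 normalized counts in Controls 1 to 3, then 431, 572 and 637 in Islet1Cre;Ebf1fl/-, and 271, 449.8 and 446 in Dlx5/6::Cre;Ebf1fl/-. All 6 mutant libraries lay below all Controls, and the highest mutant was below the lowest Control by more than its own count. The level was 29.7% of Control in Islet1Cre;Ebf1fl/-, a log2 fold change of -1.75 (95% interval -2.24 to -1.26, edgeR adjusted p = 0.00886). In Dlx5/6::Cre;Ebf1fl/- it was 21.3%, a log2 fold change of -2.23 (-2.73 to -1.73, edgeR adjusted p = 0.00129). The Dlx5/6::Cre result passed whichever library was left out (largest edgeR adjusted p = 0.0104). The Islet1Cre result passed in 7 of 9 such fits and missed without Islet1Cre replicate 1 (edgeR adjusted p = 0.0565) or replicate 2 (0.0583). Within the IE libraries the Islet1Cre log2 fold change was -1.68 (edgeR adjusted p = 0.0069), and within the D libraries, against 1 Control, the Dlx5/6::Cre value was -2.35 (edgeR adjusted p = 0.272).

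The other membrane-spanning collagens were much lower and did not pass. Col17a1, a component of hemidesmosomes in epithelia, gave 26.2, 17.1 and 23.1 normalized counts in Control, 13.6, 14.9 and 16.1 in Islet1Cre;Ebf1fl/-, and 8.64, 5.46 and 12.2 in Dlx5/6::Cre;Ebf1fl/-. Its groups did not overlap, but at these low counts the log2 fold changes of -0.58 and -1.31 had edgeR adjusted p-values of 0.869 and 0.108. Col23a1, whose gene lies 6.28 Mb from Ebf1 on chromosome 11, leaned the other way. It had 62.4, 44.1 and 46.2 normalized counts in Control, 69.3, 59.6 and 68.0 in Islet1Cre;Ebf1fl/- and 76.6, 79.2 and 85.6 in Dlx5/6::Cre;Ebf1fl/- (edgeR adjusted p = 0.854 and 0.161). Col13a1, of the neuromuscular junction, was too low to test.

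**Figure D3:**
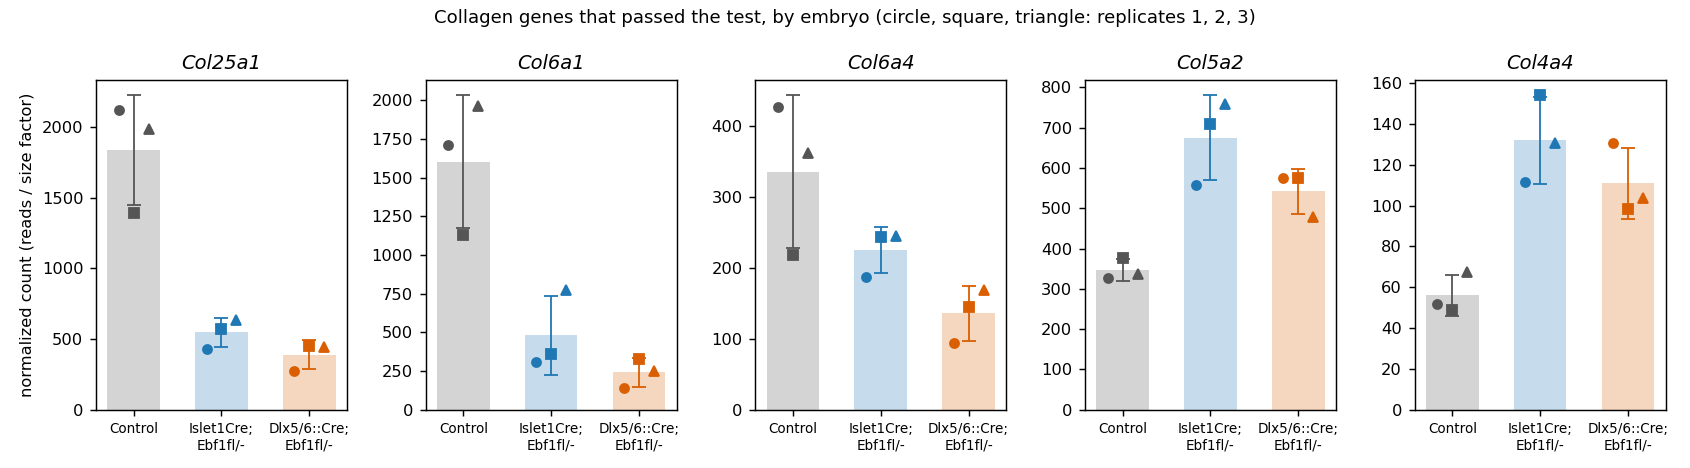
Normalized counts of the 5 collagen genes that passed in a comparison with Control, by embryo (circle, square and triangle for replicates 1, 2 and 3), with bars at the mean and error bars of 1 SD (n = 3). Col25a1 and Col6a1 lie lower in all 6 mutant libraries, Col6a4 in the 3 Dlx5/6::Cre;Ebf1fl/- libraries, and Col5a2 and Col4a4 lie higher in all 6.

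Type VI collagen forms beaded filaments from an alpha 1 chain, an alpha 2 chain and a longer chain, which can be Col6a3, Col6a4, Col6a5 or Col6a6. Of these 6 genes, 5 had log2 fold changes below 0 in each comparison with Control, but only Col6a1 and Col6a4 passed, both in Dlx5/6::Cre;Ebf1fl/-. Col6a1 (ENSMUSG00000001119, chromosome 10) gave 1713, 1131 and 1967 normalized counts in Control, 309.9, 358 and 773 in Islet1Cre;Ebf1fl/-, and 142, 328 and 253 in Dlx5/6::Cre;Ebf1fl/-. The mutant libraries lay below all Controls, with Islet1Cre replicate 3 the highest of them. The level in Dlx5/6::Cre;Ebf1fl/- was 15.1% of Control, a log2 fold change of -2.73 (95% interval -3.57 to -1.89, edgeR adjusted p = 0.00498). In Islet1Cre;Ebf1fl/- it was 29.5%, or -1.76 on the log2 scale (-2.57 to -0.95), and just missed the threshold (edgeR adjusted p = 0.0581). That comparison passed without Islet1Cre replicate 3 (edgeR adjusted p = 0.0202), without Dlx5/6::Cre replicate 1 (0.0105) and with DESeq2 (adjusted p = 0.0151). It missed in 7 of the 9 fits that left out a library (largest edgeR adjusted p = 0.313). Of 8 other alternative fits, 4 missed as well (largest edgeR adjusted p = 0.196). The mean of both mutants against Control passed (log2 fold change -2.24, edgeR adjusted p = 0.00325).

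Col6a1 was far more abundant than the chain it pairs with. Per length, Col6a1 stood 34.6 ± 7.18 (SD, n = 3) times above Col6a2 in Control, 14.9 ± 8.71 times in Islet1Cre;Ebf1fl/- and 7.39 ± 2.22 times in Dlx5/6::Cre;Ebf1fl/-. With the longest transcript as the length of each gene, these ratios were 21.8 ± 4.52, 9.39 ± 5.49 and 4.66 ± 1.40. The ratios by exon length did not overlap between Control (30.3 to 42.9) and either mutant (8.95 to 24.9, and 5.23 to 9.66). Because Col6a1 was picked with its lower mutant counts known, these lower ratios in part restate that result. Col6a2 itself had 76.0, 71.0 and 122 normalized counts in Control and 49.7 to 85.6 in the mutants, and with log2 fold changes of -0.49 and -0.52 it was not called (edgeR adjusted p = 0.854 and 0.422).

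Col6a4 (ENSMUSG00000032572, chromosome 9) gave 428, 218 and 363 normalized counts in Control, 188, 244 and 245 in Islet1Cre;Ebf1fl/-, and 93.9, 145 and 169.6 in Dlx5/6::Cre;Ebf1fl/-. Those of Dlx5/6::Cre lay below all others, and the Islet1Cre libraries overlapped the Controls. The log2 fold change was -1.30 for Dlx5/6::Cre (95% interval -1.91 to -0.69, edgeR adjusted p = 0.0356) and -0.58 for Islet1Cre (edgeR adjusted p = 0.672). The Dlx5/6::Cre call was lost in 7 of 9 fits that left out a library, all but those without Control 2 (edgeR adjusted p = 0.0189) and without Dlx5/6::Cre replicate 1 (0.0388), with a largest value of 0.147 without Control 1. Its neighbour Col6a5 had 333, 162 and 212 normalized counts in Control, 177, 249.7 and 161 in Islet1Cre;Ebf1fl/-, and 126, 158 and 157 in Dlx5/6::Cre;Ebf1fl/- (log2 fold change -0.68, edgeR adjusted p = 0.256). Col6a3 and Col6a6 stayed at 42.8 normalized counts or fewer.

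Both called type VI genes were set beside Col25a1 across the libraries. Like Col25a1, both were called lower in Dlx5/6::Cre;Ebf1fl/-, so high correlations over the 9 libraries follow in part from that choice. Over the 9 libraries the Pearson correlation of log2 CPM (counts scaled to library size) with Col25a1 was 0.97 for Col6a1 and 0.89 for Col6a4, which gave them ranks 13 and 189 among 13923 genes. After the genotype means were taken out the values were 0.87 and 0.95, without a value over all genes to set beside them. These points share their library, its depth and its dissection. The 5 genes most like Col25a1 by Pearson correlation over the 9 libraries were Tgfb2 (0.99), Arhgef28 (0.98), Ank1 (0.98), Cds1 (0.98) and Nefl (0.98). Tgfb2 encodes a growth factor, Ank1 an ankyrin of the membrane skeleton and Nefl a neurofilament subunit. By Spearman rank correlation they stood, in this order, at ranks 6, 33, 19, 118 and 201, so the list depends on the measure. All 5 were themselves called lower in both comparisons with Control. This follows in part from ranking genes by likeness to a gene that was called lower in both.

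The promoters of Col25a1, Col6a1 and Col6a4 are shown because the factor deleted here binds DNA. The windows run from 250 bases before to 50 after the RefSeq start (GRCm38.p6), and 35 of the 44 collagen genes had 1 or more, 38 windows in all. In Col25a1 the capitals mark a direct repeat of 16 bases, in Col6a4 a match to CCCNNGGG, the core of the palindrome that EBF proteins bind, which reads the same on both strands. The Col25a1 window (chr3:130180595-130180894, plus strand) has its RefSeq start 49344 bases after the GENCODE gene start. The Col6a1 window is chr10:76725995-76726294 and that of Col6a4 is chr9:106096642-106096941, both on the minus strand.
Col25a1: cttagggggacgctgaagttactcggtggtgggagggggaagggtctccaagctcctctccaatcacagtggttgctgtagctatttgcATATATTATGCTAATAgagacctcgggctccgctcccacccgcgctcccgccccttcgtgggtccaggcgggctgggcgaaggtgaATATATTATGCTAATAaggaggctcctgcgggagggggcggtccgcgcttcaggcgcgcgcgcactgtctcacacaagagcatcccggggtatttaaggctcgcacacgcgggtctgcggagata
Col6a1: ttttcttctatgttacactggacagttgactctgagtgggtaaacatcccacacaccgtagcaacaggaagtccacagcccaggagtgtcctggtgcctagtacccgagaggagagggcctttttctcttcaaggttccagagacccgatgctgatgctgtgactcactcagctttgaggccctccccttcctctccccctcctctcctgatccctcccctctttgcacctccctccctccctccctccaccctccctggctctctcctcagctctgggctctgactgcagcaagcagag
Col6a4: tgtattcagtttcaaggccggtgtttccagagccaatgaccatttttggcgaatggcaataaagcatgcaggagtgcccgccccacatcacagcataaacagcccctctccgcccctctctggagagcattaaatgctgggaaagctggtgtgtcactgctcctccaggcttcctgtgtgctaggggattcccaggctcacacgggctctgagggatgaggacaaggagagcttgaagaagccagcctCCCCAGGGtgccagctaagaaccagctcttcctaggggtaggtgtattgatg

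The repeat ATATATTATGCTAATA in the Col25a1 window occurred 2 times, with starts 86 bases apart. A direct repeat at least this long was present in 2.4% of 32851 mouse windows of the same length and in 2 of the 38 collagen windows. The letters CCCNNGGG were found in 8 of the 38 collagen windows (21.05%) and in 13.67% of all windows. The windows of Col25a1, Col6a1 and Col4a4 held none, and those of Col6a4, Col6a5 and Col6a6 each held at least 1. The remaining matches lay in the windows of Col11a2, Col17a1, Col23a1, Col4a2 and Col9a2. No window was available for Col5a2.

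Of the 11 fibril-forming collagens only Col5a2 passed. Col5a2 (ENSMUSG00000026042, chromosome 1), a chain of type V collagen that helps set the diameter of type I fibrils, gave 327, 377 and 338 normalized counts in Control. It gave 557, 709 and 759 in Islet1Cre;Ebf1fl/- and 575, 575 and 478 in Dlx5/6::Cre;Ebf1fl/-. All 6 mutant libraries lay above all Controls. The log2 fold change was 0.96 for Islet1Cre (95% interval 0.65 to 1.27, edgeR adjusted p = 0.0154) and 0.64 for Dlx5/6::Cre (0.33 to 0.95, edgeR adjusted p = 0.0392). The Islet1Cre call was lost without Islet1Cre replicate 2 (edgeR adjusted p = 0.0907), Control 1 (0.0873) or Control 3 (0.0564). The Dlx5/6::Cre call was kept only without Dlx5/6::Cre replicate 1 (0.0446) or Islet1Cre replicate 1 (0.0340), and reached 0.153 without Control 1.

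The partner chain Col5a1 had 153.8, 99.6 and 116 normalized counts in Control and 125 to 179 in the mutants, and Col1a1 had 46.1, 35.9 and 38.5 in Control and 24.5 to 59.4 in the mutants. Neither these nor Col1a2 and Col3a1 passed. Col11a1, a chain of type XI collagen, gave 332, 314 and 294 normalized counts in Control, 337, 707 and 277 in Islet1Cre;Ebf1fl/- and 601, 493 and 419 in Dlx5/6::Cre;Ebf1fl/-. With Dlx5/6::Cre all libraries lay above all Controls, and the log2 fold change of 0.68 did not pass (edgeR adjusted p = 0.293). Col11a2, the more abundant partner of Col11a1, gave 1898, 921 and 1039 normalized counts in Control and 803 to 1522 in the mutants.

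The type IV collagens of basement membranes were dominated by Col4a1 and Col4a2, which held 21.6% and 18.3% of the collagen counts in Control. Col4a1 gave 4679, 3766 and 5180 normalized counts in Control, 4815, 5286 and 5221 in Islet1Cre;Ebf1fl/-, and 5349.5, 4936 and 4241 in Dlx5/6::Cre;Ebf1fl/-. Col4a2 gave 4027, 3407 and 4104 in Control, 4378, 4521 and 4433 in Islet1Cre;Ebf1fl/-, and 4583, 4412 and 3943 in Dlx5/6::Cre;Ebf1fl/-. The genes lie head to head, and per length their ratio was 1.04 ± 0.07, 1.02 ± 0.04 and 0.99 ± 0.04 in the 3 genotypes (SD, n = 3). The log2 fold changes of Col4a1 had 95% intervals of -0.10 to 0.44 and -0.18 to 0.36, and neither gene passed.

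Col4a4 (ENSMUSG00000067158, chromosome 1), known from the glomerular basement membrane, passed from a low level. It gave 51.6, 49.0 and 67.3 normalized counts in Control, 111, 154 and 131 in Islet1Cre;Ebf1fl/-, and 131, 98.3 and 103 in Dlx5/6::Cre;Ebf1fl/-. All 6 mutant libraries lay above all Controls. The log2 fold change was 1.24 for Islet1Cre (95% interval 0.75 to 1.73, edgeR adjusted p = 0.0311) and 0.98 for Dlx5/6::Cre (0.50 to 1.47, edgeR adjusted p = 0.0450). In Dlx5/6::Cre the call was lost in each of the 9 fits that left out a library (edgeR adjusted p from 0.0575 to 0.158). The Islet1Cre call was kept only without Dlx5/6::Cre replicate 1 (0.00777) or replicate 2 (0.0412), and reached 0.179 without Islet1Cre replicate 2. For the mean of both mutants (edgeR adjusted p = 0.0149) the call was lost without Control 1 (0.0864) or Control 2 (0.0761).

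The fibril-associated (FACIT) collagens sit on the surface of fibrils, and none of the 9 passed. Col9a3 gave 3699, 2858 and 3271 normalized counts in Control, 3123, 3899.8 and 3474 in Islet1Cre;Ebf1fl/-, and 2563, 3070.5 and 2583 in Dlx5/6::Cre;Ebf1fl/-. Its partner Col9a2 gave 432, 429 and 503 in Control and 378 to 485 in the mutants, while Col9a1 reached 31.3 normalized counts at most. Col16a1 had 800.5, 456 and 635 normalized counts in Control, 279, 588 and 532 in Islet1Cre;Ebf1fl/-, and 391, 366 and 307 in Dlx5/6::Cre;Ebf1fl/-. For Col16a1 all Dlx5/6::Cre libraries lay below all Controls, with a log2 fold change of -0.83 that edgeR did not call (adjusted p = 0.163) and DESeq2 did.

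In the remaining classes no gene passed. Col8a1, a network collagen of vessels and the cornea, gave 11.8, 55.5 and 57.7 normalized counts in Control, 95.1, 126 and 75.2 in Islet1Cre;Ebf1fl/-, and 66.9, 101 and 96.2 in Dlx5/6::Cre;Ebf1fl/-. Its mutant libraries lay above all Controls, but Control 1 was 4.72-fold below the next library and neither log2 fold change, 1.25 nor 1.08, was called (edgeR adjusted p = 0.404 and 0.286). Col15a1, a multiplexin, gave 195, 167 and 145 normalized counts in Control, 212, 247 and 209 in Islet1Cre;Ebf1fl/- and 165, 218 and 174 in Dlx5/6::Cre;Ebf1fl/- (edgeR adjusted p = 0.617 and 0.762). Over all classes, the groups did not overlap for 10 of the 41 genes with Islet1Cre, against 15.1% of all genes, for 13 with Dlx5/6::Cre, against 20.9%, and for 7 with all 6 mutant libraries, against 7.7%.

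Between the mutants no collagen gene passed, nor did any of the 16368 genes (0.0%, edgeR). At an unadjusted p below 0.05 there were 4 collagen genes, where 844 genes (5.16%) reached it, and DESeq2 called 0 collagen genes and 18 genes in all. The 4 genes were Col9a3, Col6a1, Col6a4 and Col5a2, each lower with Dlx5/6::Cre. For Col25a1 the log2 difference was -0.48 with a 95% interval from -0.98 to 0.01, and for Col6a1 it was -0.97 (-1.80 to -0.14). Neither passed after adjustment, which does not show that the mutants were alike.

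Dlx5/6::Cre;Ebf1fl/- replicate 1 was the highest library for 11 collagen genes and the lowest for 8. In 6 of the 11 it exceeded the next library by at least 1.5-fold. Col22a1 gave 248 normalized counts there and at most 80.5 elsewhere, Col2a1 485 against 231, Col4a5 279.6 against 115, and Col12a1 92.8 against 43.3. Col4a6 and Col9a1 behaved alike at lower counts, with 46.4 against 16.3 and 31.3 against 16.1. The summed normalized counts of 7 markers of cortical excitatory neurons were 2364, 1774 and 1013 in Control, 1805, 958 and 1781 in Islet1Cre;Ebf1fl/-, and 5787, 2450.4 and 2952 in Dlx5/6::Cre;Ebf1fl/-. All 3 Dlx5/6::Cre libraries thus lay above all Controls, with a median log2 fold change of 1.03 and 0 of the 7 genes called. Those of 6 radial glia markers were 38159 in Dlx5/6::Cre replicate 1 and 17242 to 24161 in the other libraries. Col25a1, Col6a1 and Col6a4 were lowest in this library, and without it their Dlx5/6::Cre log2 fold changes were -2.04, -2.47 and -1.10, each still past the threshold. The part of these cell types in the collagen values was not tested.

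**Figure D4:**
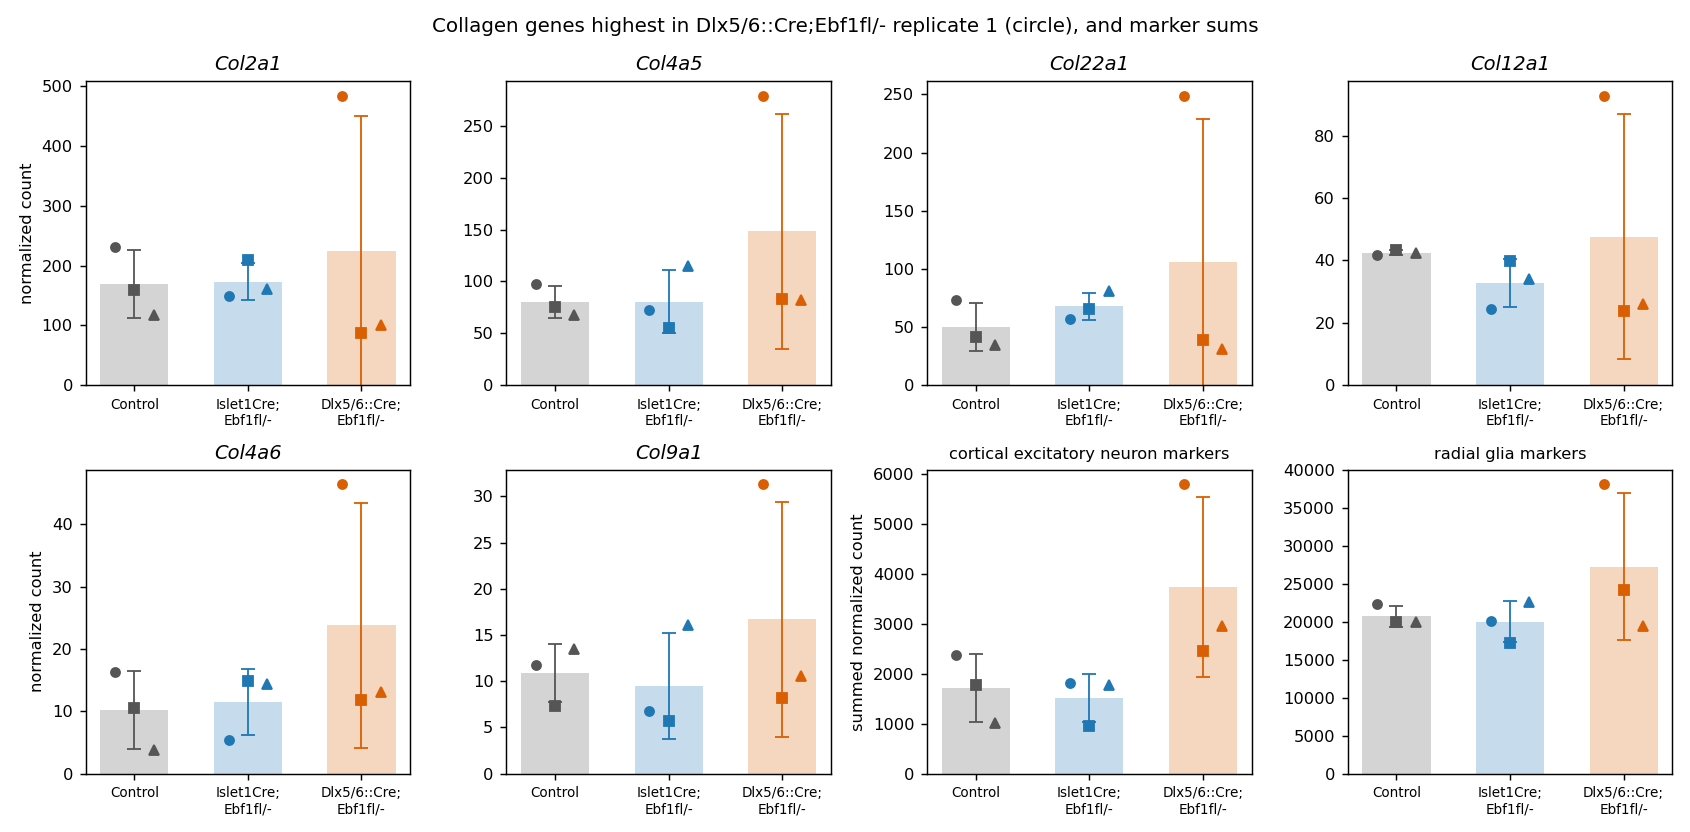
Normalized counts of 6 collagen genes, and summed normalized counts of cortical excitatory neuron and radial glia markers, by embryo (circle, square and triangle for replicates 1, 2 and 3), with bars at the mean and error bars of 1 SD (n = 3). In every panel the highest point is Dlx5/6::Cre;Ebf1fl/- replicate 1.

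Genes that make, process or bind collagen were tested as well. Over all genes 0.971% passed for Islet1Cre, 2.39% for Dlx5/6::Cre and 2.76% for the mean of both mutants. At such shares 0 or few calls are the usual outcome for lists this short. Of 17 tested enzymes and chaperones of collagen synthesis, led by the disulfide isomerase P4hb at 76.1 RPKM in Control, 0 passed in either comparison with Control. With the mean of both mutants Colgalt2, a galactosyltransferase of collagen lysines, passed and was lower. Its log2 fold changes were -1.27 for Islet1Cre and -1.15 for Dlx5/6::Cre (edgeR adjusted p = 0.0892 and 0.0720). All its mutant libraries lay below all Controls. The median log2 fold changes of the list were -0.05 and -0.02 for Islet1Cre and Dlx5/6::Cre. Of 11 tested processing and cross-linking enzymes, led by the procollagen protease Bmp1, 0 passed (medians -0.15 and -0.02). Of 12 tested collagen receptors, led by the phosphatase Ptprs at 46.4 RPKM, 0 passed (medians -0.03 and 0.22), and neither did any of 4 tested collagen-degrading proteases, led by Mmp9. The 15 basement membrane partners, led by Agrn at 62.2 RPKM, had medians of 0.06 and 0.07, and 0 passed for Islet1Cre. These lists were chosen with earlier results in view.

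Markers of cells that are rich in collagen were measured beside these values. Summed normalized counts of 8 endothelial markers were 4247 to 5710.2 in Control, 4413 to 4809 in Islet1Cre;Ebf1fl/- and 4090 to 4922 in Dlx5/6::Cre;Ebf1fl/-. For 8 mural cell markers they were 4148 to 5097, 3951 to 4243 and 3817 to 5183, and for 10 meningeal and fibroblast markers 179.9 to 219.7, 165 to 276 and 164 to 239.6. Of these 3 lists 8, 8 and 3 genes were tested, in that order, and none of them passed in a comparison with Control. Cartilage markers summed to 35.6 or less in every library. Of 6 choroid plexus markers, which summed to 124 to 285, Clic6 passed and was lower in Dlx5/6::Cre;Ebf1fl/-, while Ttr, its defining marker, stood at 0.08 RPKM. The 10 projection neuron markers summed to 95005 to 116028, 110094 to 117315 and 95907 to 119134, and of these Foxp1 passed and was lower in Dlx5/6::Cre;Ebf1fl/-. The part of these cell types in the collagen differences was not tested.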

How the data were processed

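RNA of dissected E17.5 striatum from 9 embryos was sequenced as stranded poly(A) libraries (75-base reads). The deposited values were whole-number counts per Ensembl gene, made by the authors with STAR 2.4.0k on mm10, removal of multi-mapped reads, and HTSeq 0.5.3, whose strand setting was not given in the sources used here. The authors tested them with DESeq 1.8.3, and only the counts were used here. Collagen genes and exon lengths came from GENCODE M21 and promoters from RefSeq.

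Counts of all 9 libraries (16548083 to 41507049 in total) were fitted in 1 model with genotype as the term, in edgeR 4.0.16 (TMM scaling, filterByExpr with a minimum count of 10, quasi-likelihood test), and p-values were adjusted by Benjamini-Hochberg over 16368 genes. Normalized counts were counts divided by DESeq2 1.42.0 size factors, and RPKM used the union of exons and TMM-scaled totals. The script was tested on simulated data. Genes were named if they passed in a comparison, if their unadjusted p was below 0.05 with no overlap between groups, or if among the 8 most abundant collagens, and this gave 17. The collagen genes, the lists and the tests were chosen with earlier results of these data known. Likeness to Col25a1 was ranked over genes with a mean of at least 1 CPM, with a prior count of 2. Libraries of a genotype differed beyond counting noise (smallest chi-square per degree of freedom 10.8). Alternatives were another tool, scaling, filter, sample set, block or covariate, and leaving out each library. No SD or test rests on fewer than 3 embryos in a genotype except where a library was left out or the fit was within a code letter, and the lone sample is then assumed to vary like the others. A result of the basement membrane list for Dlx5/6::Cre is not reported here.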

Additional observations from a re-analysis of the deposited data

How the results depend on the processing

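Across 68 log2 fold changes of the 17 named collagen genes, 1014 of 1101 refitted values kept their direction and their side of the threshold, 55 lost a call, 12 gained one and 20 changed sign, all for genes that were called in neither fit. Where the sign changed with 1 library left out, the log2 fold changes ranged as follows. For Islet1Cre against Control they were -0.24 to 0.35 for Col11a2, -0.030 to 0.10 for Col9a2, -0.48 to 0.076 for Col6a5 and -0.029 to 0.74 for Col11a1, and for Dlx5/6::Cre -0.028 to 0.19 for Col4a1. Between the mutants they were -0.15 to 0.000159 for Col4a1, -0.089 to 0.0079 for Col4a2, -0.056 to 0.71 for Col11a1 and -0.32 to 0.048 for Col8a1. For the mean of both mutants they were -0.17 to 0.015 for Col9a3, -0.46 to 0.12 for Col11a2 and -0.12 to 0.0060 for Col9a2. The sign also changed for Col11a2 with the replicate block (0.019, Islet1Cre), for Col4a1 in Dlx5/6::Cre with the code letters as a covariate (-0.10) and within the D libraries (-0.10), and for Col15a1 between the mutants with that covariate (0.053). The number of collagen genes called ranged, with 1 library left out, from 0 to 4 for Islet1Cre;Ebf1fl/-, 2 to 4 for Dlx5/6::Cre;Ebf1fl/-, 0 to 0 between the mutants and 2 to 5 for the mean of both mutants. For all genes these ranges were 15 to 397, 143 to 613, 0 to 4 and 178 to 775. With the code letters as a covariate the collagen counts were 1 and 2 for the comparisons with Control, and 61, 32, 1 and 278 genes passed in all, in the same order of comparisons. With only the libraries compared, 2 collagen genes passed for Dlx5/6::Cre, and 259, 181 and 2 genes in all for Islet1Cre, Dlx5/6::Cre and the mutants against each other. DESeq2 called 401, 862, 18 and 781 genes in all. Without a filter on low counts edgeR called 311, 708 and 13. Within the D libraries, an alternative chosen after seeing the data, 0 collagen genes and 2 genes in all passed. Deviations of like-numbered replicates were not correlated (mean r = -0.02, against 0.01 for unlike numbers), so the numbers were not taken as pairs. With the replicate number as a block, 3 collagen genes passed for Islet1Cre (Col25a1 and Col5a2, with Col6a1 gained and Col4a4 lost) and 2 for Dlx5/6::Cre (Col25a1 and Col6a1, with Col5a2, Col4a4 and Col6a4 lost). The cause of these shifts was not tested. With 3 embryos a genotype, low counts limit what could be seen of the 23 collagens below 0.3 RPKM.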

Other observations

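Several collagen genes lie side by side, and the following pairs were picked after their values were seen. Col4a4 and Col4a3 start head to head on chromosome 1 with 71 bases between them. Col4a3 gave 26.2, 24.5 and 20.2 normalized counts in Control and 14.9 to 35.8 in the mutants, and its log2 fold changes were -0.01 for Islet1Cre;Ebf1fl/- and 0.02 for Dlx5/6::Cre;Ebf1fl/- where those of Col4a4 were 1.24 and 0.98. The ratio of Col4a3 to Col4a4 normalized counts was 0.509, 0.5 and 0.3 in Control, 0.207, 0.0968 and 0.274 in Islet1Cre;Ebf1fl/-, and 0.231, 0.241 and 0.181 in Dlx5/6::Cre;Ebf1fl/-, and this difference was not tested. Of Col4a3, 5.6% of the exon bases are shared with another gene. Col5a2 lies 24.6 kb from Col3a1 on the opposite strand, and Col3a1 gave 80.5, 29.4 and 65.4 normalized counts in Control and 28.6 to 92.9 in the mutants.

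Col4a1 and Col4a2, whose annotated ends overlap by 22 bases on opposite strands, had a Pearson correlation of 0.92 over the 9 libraries and of 0.97 after the genotype means were taken out, where Col4a3 and Col4a4 had -0.07 and -0.18. Col2a1 and Col22a1, which are on different chromosomes, had 0.93 and 0.96, with Dlx5/6::Cre;Ebf1fl/- replicate 1 the highest library for both. The points of each pair share their libraries and depth.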
